A study of Homo sapiens with 2 samples.

Results

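Retroelement restriction factors are host proteins that block the copying or release of retroviruses and, in several cases, of the body's own retrotransposons. The 10 genes described here were chosen by name, as APOBEC3B, APOBEC3C, APOBEC3D, APOBEC3F, APOBEC3G, APOBEC3H, SAMHD1, TRIM5, TRIM22 and BST2, out of 16920 genes on the array. All 10 had at least 3 exon-level probe sets of their own, so that all could be tested by the rule of size below, and together they held 115 of the 261481 probe sets that belong to 1 gene. Total RNA came from a human line of colorectal carcinoma, HCT116 (HCT116-WT), and from a line derived from it in which DNMT1 and DNMT3b are both disrupted (HCT116-DKO, genotype DNMT1-/- DNMT3b-/-). Per the methods the latter is the DKO1 line, a single derived line, so that differences particular to this line cannot be told apart from those of the genotype. Both were grown in McCoy's 5A medium with fetal bovine serum and received no treatment. Each group had 1 Human Exon 1.0 ST array, so no replicate error can be given for any difference and no p-value was computed.

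Restriction factors act at different steps of a retroelement's life. APOBEC3 proteins turn cytosine into uracil in newly made complementary DNA, SAMHD1 removes the deoxynucleotides that reverse transcription needs, TRIM5 binds incoming capsids, TRIM22 represses viral transcription, and BST2 (tetherin) holds budding particles at the cell surface. Many of these genes are induced by interferon, which works through STAT and IRF factors on promoter elements rich in GAAA repeats. DNA methylation by DNMT1 and DNMT3B keeps many retroelement copies silent in somatic cells.

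A promoter sequence in the RefSeq table (GRCh38.p14) was matched for 4 of the 10 genes. The 250 bases before the start site are shown for BST2, the gene with the largest difference of the 10, for TRIM5 and for SAMHD1. TRIM5 shares a motif with BST2 and SAMHD1 does not, and neither TRIM5 nor SAMHD1 was called by the rule below. A relation of the motif to the differences was not tested. Capitals mark matches to GAAANNGAA, a core of interferon-responsive elements, searched on both strands.
BST2: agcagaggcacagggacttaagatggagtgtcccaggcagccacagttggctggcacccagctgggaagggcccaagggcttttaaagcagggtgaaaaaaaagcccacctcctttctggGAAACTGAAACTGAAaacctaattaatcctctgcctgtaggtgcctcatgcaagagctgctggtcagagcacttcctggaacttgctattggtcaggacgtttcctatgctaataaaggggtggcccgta
TRIM5: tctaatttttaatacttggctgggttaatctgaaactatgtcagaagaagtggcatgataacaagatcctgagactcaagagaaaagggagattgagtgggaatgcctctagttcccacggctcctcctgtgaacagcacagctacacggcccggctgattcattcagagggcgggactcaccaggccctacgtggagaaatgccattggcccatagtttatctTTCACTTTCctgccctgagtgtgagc
SAMHD1: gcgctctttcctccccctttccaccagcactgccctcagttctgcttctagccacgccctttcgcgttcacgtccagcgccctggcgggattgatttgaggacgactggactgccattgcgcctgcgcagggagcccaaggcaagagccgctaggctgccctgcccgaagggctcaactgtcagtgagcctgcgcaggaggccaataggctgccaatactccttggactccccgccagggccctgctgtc
The sequence of BST2 lies at chr19:17405631-17405880 on the minus strand, that of TRIM5 at chr11:5685075-5685324 on the minus strand, and that of SAMHD1 at chr20:36951709-36951958 on the minus strand. In BST2 a pair of overlapping matches started 130 and 124 bases before the start site. TRIM5 had 1 match on the opposite strand, 26 bases before the start site. SAMHD1 and APOBEC3H had 0 matches. Among all 35116 promoters of this length in the table, 6.88% held the motif. A match is a run of letters and no measured binding site. CG dinucleotides, the sites that DNA methyltransferases act on, numbered 2 in the BST2 sequence, 5 in that of TRIM5, 14 in that of SAMHD1 and 1 in that of APOBEC3H, beside a median of 11 over all promoters. At least as many CG dinucleotides as in BST2 stood in 85.3% of promoters. Methylation itself was not measured by these arrays.

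Values are log2 signals, a gene's level is the median polish over its probe sets, and every difference was taken as the HCT116-DKO value less the HCT116-WT value. An SD printed with a difference gives its spread over a gene's probe sets, measured on the same 2 arrays. As background, the 95th percentile over 286 olfactory receptor genes was used (7.08 for HCT116-WT, 7.30 for HCT116-DKO). A gene counted as higher or lower when its difference reached 1, at least 75% of its probe sets differed that way, and it lay above background in the brighter array. Levels of different genes are not compared, because probes differ in brightness. Since whole cultures were measured, more cells with a transcript and more RNA per cell cannot be told apart.

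BST2 alone passed this rule. Among the 10 genes, 1 was higher and 0 were lower in HCT116-DKO, where 2.66% of 16253 tested genes were called higher and 0.535% were called lower. All 10 differences were positive, beside 53.7% of tested genes, though that of APOBEC3H, which was not above background, lay below 0 in 3 of 12 alternative settings. The median difference of the 10 was 0.59, and the median over all tested genes was 0.02. BST2 was above background in HCT116-DKO only, 6 genes were above it in both arrays, and APOBEC3G, APOBEC3H and TRIM22 were above it in neither. The 6 measured in both arrays differed by 0.29 to 0.97, with a median of 0.62, and the median of all 10782 genes above background in both arrays was 0.03. All 6 were on the positive side, which held for 55.5% of those 10782 genes. Each had at least 75% of its probe sets higher (30.2% of those genes), and APOBEC3C, APOBEC3F and TRIM5 had every probe set higher (5.61%). At a lower threshold of 0.58, APOBEC3B, APOBEC3D, APOBEC3F, TRIM5 and BST2 were called higher, 5 of 10, beside 5.67% of tested genes. The 10 genes were chosen with earlier results of these data known, so the shares given beside them are no test.

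**Figure D1:**
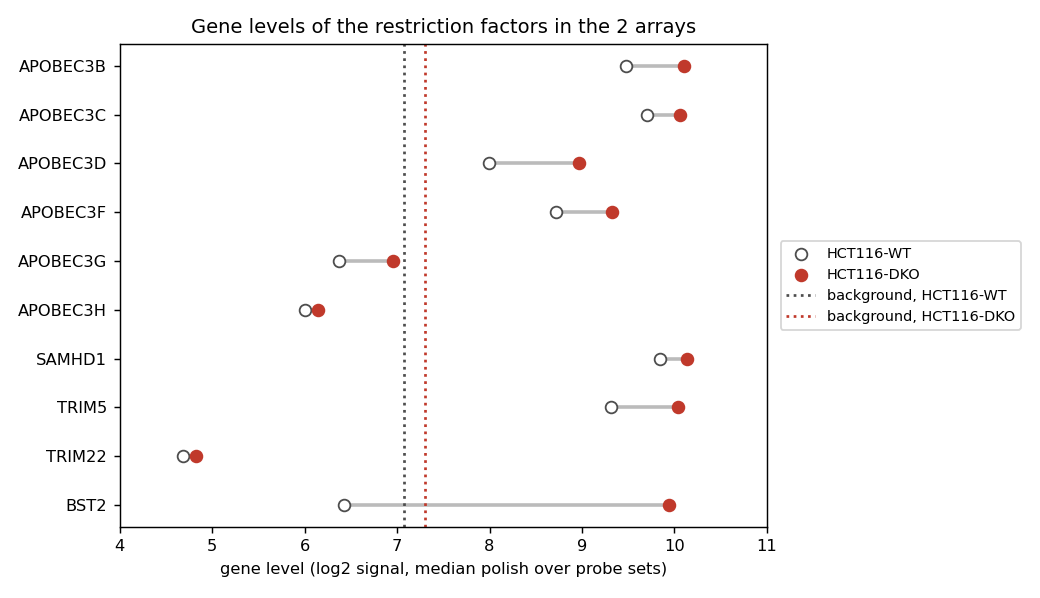
Log2 levels of the 10 restriction factors in the HCT116-WT (open points) and HCT116-DKO (filled points) arrays, joined by a line per gene, with dotted lines for the background of each array. BST2 moves from below background (6.42) to 9.94, while APOBEC3G, APOBEC3H and TRIM22 stay under background in both arrays.

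BST2, the membrane protein that tethers budding enveloped particles to the cell, rose from a level of 6.42 in HCT116-WT, below background, to 9.94 in HCT116-DKO. The difference was 3.52 (SD over 8 probe sets 1.78), and the gene was at least 7.27-fold higher. With levels below background set to background the difference was 2.86. All 8 of its probe sets were higher in HCT116-DKO, but not by equal amounts. In the order of their IDs the first 4 probe sets went from 6.52 to 9.97, from 5.77 to 10.62, from 3.91 to 8.45 and from 6.92 to 9.41. The fifth, 3854462, was already bright in HCT116-WT at 9.91 and read 10.49 in HCT116-DKO. The sixth and the seventh went from 6.49 to 11.06 and from 2.93 to 6.51. The eighth, 3854466, read 7.13 and 7.43. The seventh and the eighth were below the probe set background in both arrays, so that their differences are not measured reliably. The fifth, above that background in both arrays, and the eighth differed by 0.58 and 0.30, each at least 2 away from the difference of the gene. The other 6, with the unreliable seventh among them, had a median difference of 4.06 and a range of 2.49 to 4.85. BST2 was called under all 15 alternative settings, with a difference of 2.86 to 3.99.

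**Figure D2:**
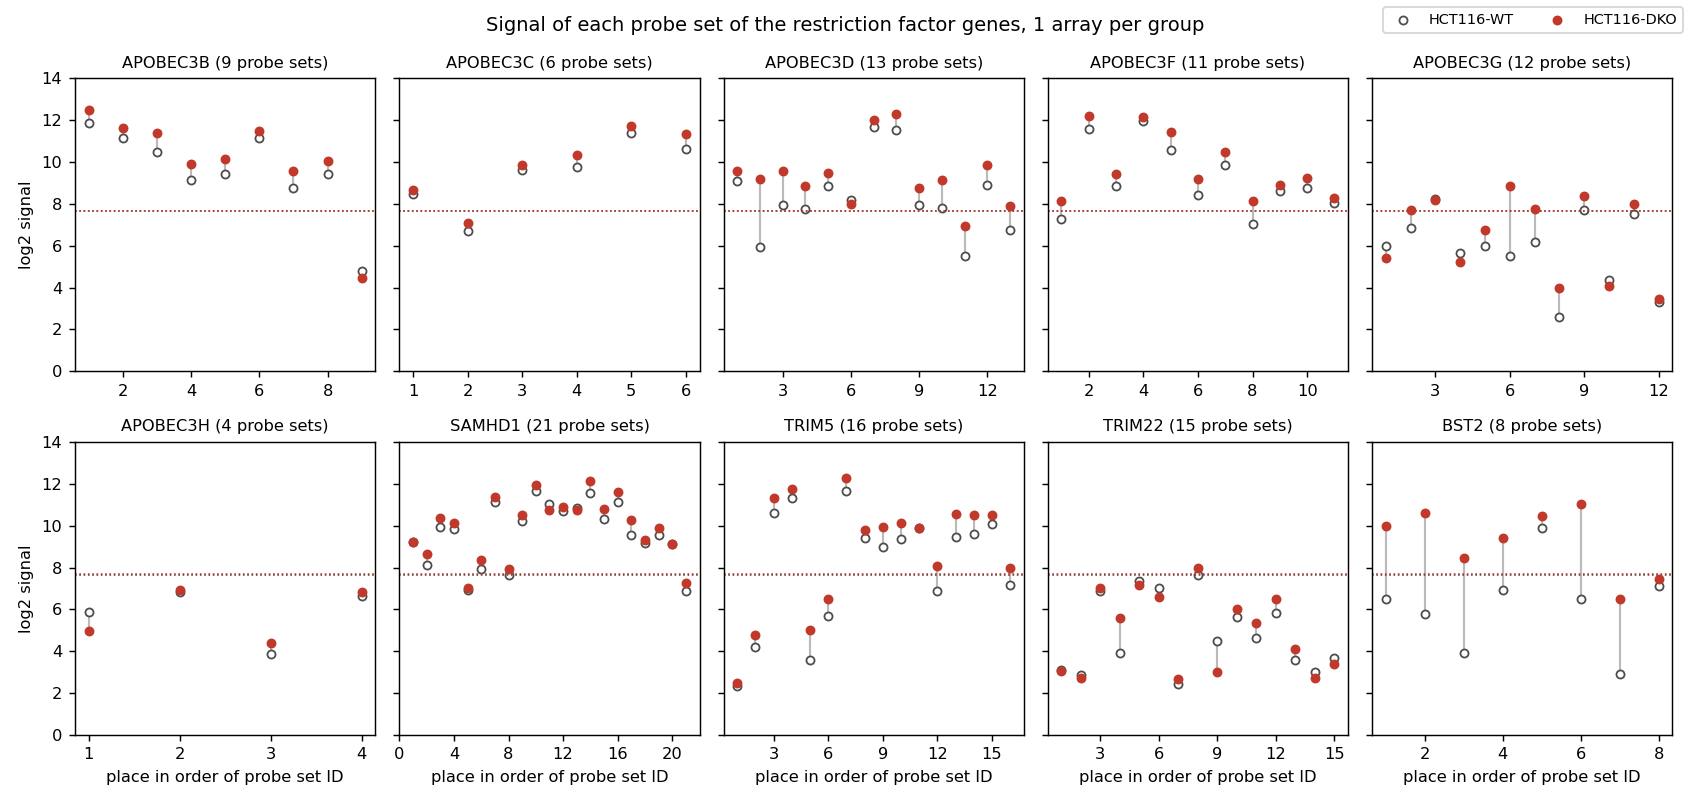
Log2 signal of every probe set of the 10 genes in HCT116-WT (open points) and HCT116-DKO (filled points), by place in the order of probe set IDs, 1 panel per gene, with dotted lines for the probe set background (7.66 for HCT116-WT, 7.68 for HCT116-DKO). In BST2 the gap between the arrays is narrower at place 5 (0.58) than at the places around it and place 8 is below background in both arrays, in APOBEC3D and APOBEC3G a single probe set stands apart at places 2 and 6, and the gaps of TRIM5 and SAMHD1 are at most 1.43 and 0.72.

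The APOBEC3 genes, which lie side by side on chromosome 22, form the largest group. None of the 6 was called, yet 48 of their 55 probe sets were higher in HCT116-DKO. Over all 10 genes 99 of 115 probe sets (86.1%) were higher, beside 52.6% of the probe sets of all genes. APOBEC3B, a nuclear deaminase with activity on retrotransposons and on genomic DNA of tumours, was at 9.47 and 10.10, a difference of 0.63 (SD 0.38 over 9 probe sets) or 1.54-fold. Its bright probe sets moved together, with signals of 11.85 and 12.48 at the first place and 9.15 and 9.92 at the fourth. The only one of the 9 that was lower in HCT116-DKO, at 4.78 and 4.44, was below background in both arrays. APOBEC3C, a deaminase with a single catalytic domain, was at 9.71 and 10.07, a difference of 0.36 (SD 0.19) that all 6 probe sets shared in sign, from 0.21 to 0.70. The even-numbered probe sets alone gave 0.56, and the alternatives ranged from 0.24 to 0.56. APOBEC3F, a double-domain deaminase that acts on retroviral complementary DNA, was at 8.72 and 9.32, a difference of 0.61 (SD 0.29) or 1.52-fold. All 11 of its probe sets were higher, by 0.19 to 1.104, and 9 of them were above the probe set background in both arrays.

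APOBEC3D, another double-domain deaminase, lay closest to the threshold from below. It stood at 7.998 in HCT116-WT and at 8.97 in HCT116-DKO, a difference of 0.97 (SD 0.83) or 1.96-fold, with 12 of 13 probe sets higher. In 4.01% of tested genes the difference was at least this large. A single probe set, 3945587 at place 2, went from 5.93 to 9.21, a difference of 3.27, while the other 12 had a median of 0.89 and a range of -0.20 to 1.61. Another summary of the same probe sets carried the gene over the threshold, with a difference of 1.05 for their mean and 1.24 for their median, and so did the even-numbered probe sets alone at 1.03. APOBEC3D therefore stands at the limit of the rule rather than clearly on a side of it.

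APOBEC3G and APOBEC3H, both active against retroviruses in blood cells, were not above background. APOBEC3G was at 6.37 and 6.95, with 8 of 12 probe sets higher and an SD of 1.08 around a difference of 0.58, which ranged from 0.22 to 1.24 over the alternatives, and no fold is given. Within it the probe set 3945663 at place 6 read 5.51 in HCT116-WT and 8.85 in HCT116-DKO, a difference of 3.34, while the other 11 had a median of 0.45 and ran from -0.58 to 1.54. The probe sets at places 3 and 9, the only ones above the probe set background in both arrays, read 8.22 and 8.18, and 7.69 and 8.40. The differences were thus uneven over the 12 probe sets of APOBEC3G, of which 6 were above the probe set background in at least 1 array. Whether these differences depend on the stretch probed was not tested. APOBEC3H was at 6.01 and 6.14, and 0 of its 4 probe sets were above the probe set background in either array. APOBEC3 genes are close relatives, and the annotation gave 7 further probe sets to more than 1 of them, which were left out of gene levels. How far probes of 1 gene also bind transcripts of its relatives was not tested.

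SAMHD1, the enzyme that breaks down deoxynucleoside triphosphates, had the most probe sets of the 10 genes. Its difference was the smallest of the 6 genes measured in both arrays, except with the median over probe sets and with odd-numbered probe sets, where that of APOBEC3C was smaller (0.40 beside 0.43, and 0.24 beside 0.29). It read 9.85 in HCT116-WT against 10.14 in HCT116-DKO, a difference of 0.29 (SD 0.24) or 1.22-fold, with 19 of 21 probe sets higher. Its probe sets differed by -0.32 to 0.72. The spread was nearly as large as the difference itself, and 20.1% of all tested genes had a difference at least as large.

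TRIM5, the ubiquitin ligase that recognises retroviral capsids, was at 9.31 and 10.04, a difference of 0.72 (SD 0.38) or 1.65-fold, below the threshold of 1. All 16 of its probe sets were higher in HCT116-DKO, by 0.01 to 1.43. Of these, 10 were above the probe set background in both arrays and differed by 0.01 to 1.14, and 12 were above it in at least 1 array, which leaves out the one with the largest difference (3.57 and 5.00). Among the bright ones, place 7 read 11.66 and 12.27, place 13 read 9.44 and 10.57, and place 11 read 9.90 and 9.91. At least as large a difference was found in 6.03% of tested genes. TRIM22, an interferon-induced ligase of the same gene cluster, was not above background in either array. It was at 4.68 and 4.83, with 8 of 15 probe sets higher, and only 1 of the 15, at 7.65 and 7.96, passed the probe set background in an array. The pair thus differed in that TRIM5 was measured in both arrays and TRIM22 in neither.

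Among the 6 genes measured in both arrays, the differences ran in the order APOBEC3D, TRIM5, APOBEC3B, APOBEC3F, APOBEC3C and SAMHD1. Neighbours in that order were 0.02 to 0.25 apart, and the SD over probe sets was 0.19 to 0.83. Each gap was smaller than the larger SD of the pair. That SD is a spread over probe sets on the same 2 arrays and no error of a gene's difference. Whether neighbours in this order differ was therefore not tested. Of the 115 probe sets, 15 were at least 1 higher and above the probe set background in HCT116-DKO, beside 2.89% of all probe sets of 1 gene. They were 5 each in APOBEC3D and BST2, 2 each in APOBEC3G and TRIM5, and 1 in APOBEC3F. None, 0 of 115, was at least 1 lower and above the probe set background in HCT116-WT, beside 0.941% of all. A departure of at least 2 from the difference of the gene was found for 4 of the 115 probe sets, the pair in BST2 and 1 each in APOBEC3D and APOBEC3G, beside 0.91% of the probe sets of tested genes, and the eighth of BST2 was below background in both arrays. Probe sets were not placed on exons.

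Genes beside the restriction factors differed by their own amounts. Before the APOBEC3 cluster lie CBX6, a Polycomb subunit, at 10.07 and 9.95 with 0 of 12 probe sets higher, and NPTXR at 8.79 and 8.89. APOBEC3A, the first gene of the cluster, was at 7.97 in HCT116-WT with a difference of 0.03. After the cluster CBX7, another Polycomb subunit, was at 7.70 and 8.20, and PDGFB, a growth factor subunit, rose from 7.72 to 8.83, a difference of 1.11 (SD 0.57) or 2.16-fold in 11 of 12 probe sets. The differences along chromosome 22 were thus -0.12 to 0.11 before the cluster and at its first gene, between 0.36 and 0.97 from APOBEC3B to APOBEC3F, not above background at APOBEC3G and APOBEC3H, and 0.50 and 1.11 at CBX7 and PDGFB. At the TRIM cluster, TRIM6, of the same cluster as TRIM5, was at 8.94 and 8.01 with 0 of 6 probe sets higher, a difference of -0.93. UBQLNL, OR52B6, OR52N4 and OR56B1, the measured genes around that cluster, were not above background. OR52B6, OR52N4 and OR56B1 are among the 286 olfactory receptor genes that set the background, so this was nearly fixed in advance for them. TRIM34, between TRIM6 and TRIM22, had 2 probe sets and was not tested. Beside BST2 on chromosome 19, GTPBP3 differed by -0.05, PLVAP by -0.14, MVB12A, an ESCRT subunit, by 0.35 and NXNL1 by -0.10, and none was called. Around SAMHD1 on chromosome 20, DSN1 differed by 0.23, MTCL2 by 0.31 and RBL1 by 0.01, and MROH8 was below background.

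**Figure D3:**
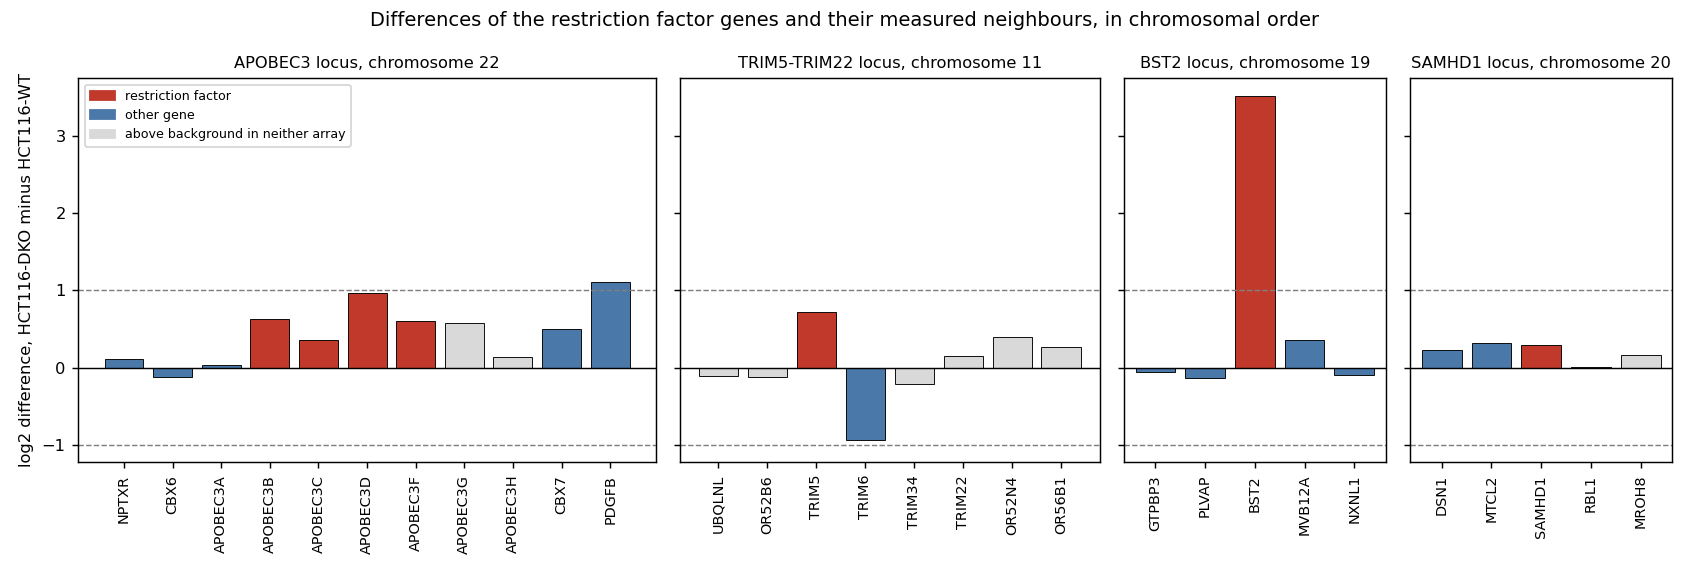
Log2 difference between HCT116-DKO and HCT116-WT for the restriction factors and the nearest measured genes at the 4 loci, as 1 bar per gene. Bars follow the start of each gene in the RefSeq gene table and are not to distance, so bars side by side need not be adjacent genes. Red bars are restriction factors, blue other genes and grey genes above background in neither array, with dashed lines at 1 and -1. BST2 (3.52) stands between neighbours of -0.14 and 0.35, and TRIM5 (0.72) and TRIM6 (-0.93) of the same cluster differ in sign.

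Companion lists covered other steps of the same defence. Among relatives of the APOBEC family outside the 10 genes, 0 of 4 measured genes were called, with a median of -0.11, and only APOBEC3A was above background. APOBEC1, the editor of apolipoprotein B RNA, was at 5.91 and 5.67. Among nucleases and editors of retroelement nucleic acid, 0 of 4 were called and the median was 0.13. ADAR, which edits double-stranded RNA, was at 11.63 and 11.81, and RNASEH2B, a subunit of the ribonuclease that cuts RNA in DNA hybrids, at 7.50 and 7.58. Enzymes of deoxynucleotide supply, the opposite side of the SAMHD1 reaction, had 0 of 9 called and a median of -0.04. Their differences ran from -0.26 to 0.47, and 3 of the 9 were positive. The ribonucleotide reductase subunit RRM1 was at 11.19 and 10.93 with 25 of 25 probe sets lower, and RRM2 was at 10.00 and 9.97.

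Further inhibitors of retroviruses or retrotransposons had 1 of 9 measured genes called higher, 0 lower and a median of 0.53. The count higher was 3 at a threshold of 0.58 and with bright probe sets only, and 2 with the median over probe sets and without a demand on background. The called gene was MX2, a GTPase that blocks nuclear entry of retroviral DNA, which rose from 6.04, below background, to 10.35, at least 9.67-fold, in 17 of 18 probe sets. IFI16, a DNA sensor, was at 4.38 and 6.38, above background in neither array, and was not called. Among TRIM genes of chromosome 11p15, 1 of 4 was called higher, 0 lower, and the median was 0.55, with 2 called higher at a threshold of 0.58 and with the median over probe sets. TRIM21, a cytosolic antibody receptor, rose from 8.02 to 9.60, a difference of 1.58 (SD 0.51), in 13 of 13 probe sets. TRIM68 was at 7.81 and 8.69 and TRIM6 is described above. TRIM6, the only measured gene of the list with a negative difference, was called lower after median centring, at a threshold of 0.58 and with even-numbered probe sets.

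Transcription factors of the interferon response were on the positive side throughout. All 5 measured factors had positive differences, with a median of 0.61, and 1 was called (3 at a threshold of 0.58). IRF9, the DNA-binding subunit of the interferon-stimulated factor ISGF3, rose from 8.62 to 10.66, a difference of 2.04 (SD 1.04) or 4.11-fold, in 10 of 12 probe sets. This call was lost with a demand on 90% of probe sets, with even-numbered probe sets and with probe sets of several genes kept. STAT2, its partner, was at 8.69 and 9.42. The part of interferon signalling in the levels of the restriction factors was not tested. Endogenous retroviral envelope genes were represented by ERVW-1 and ERVFRD-1 of the 7 listed, and neither was above background (4.44 and 3.65, 6.57 and 6.74). The other 5 had no probe set of their own, and probe sets without a gene name were not examined for retroelements.

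**Figure D4:**
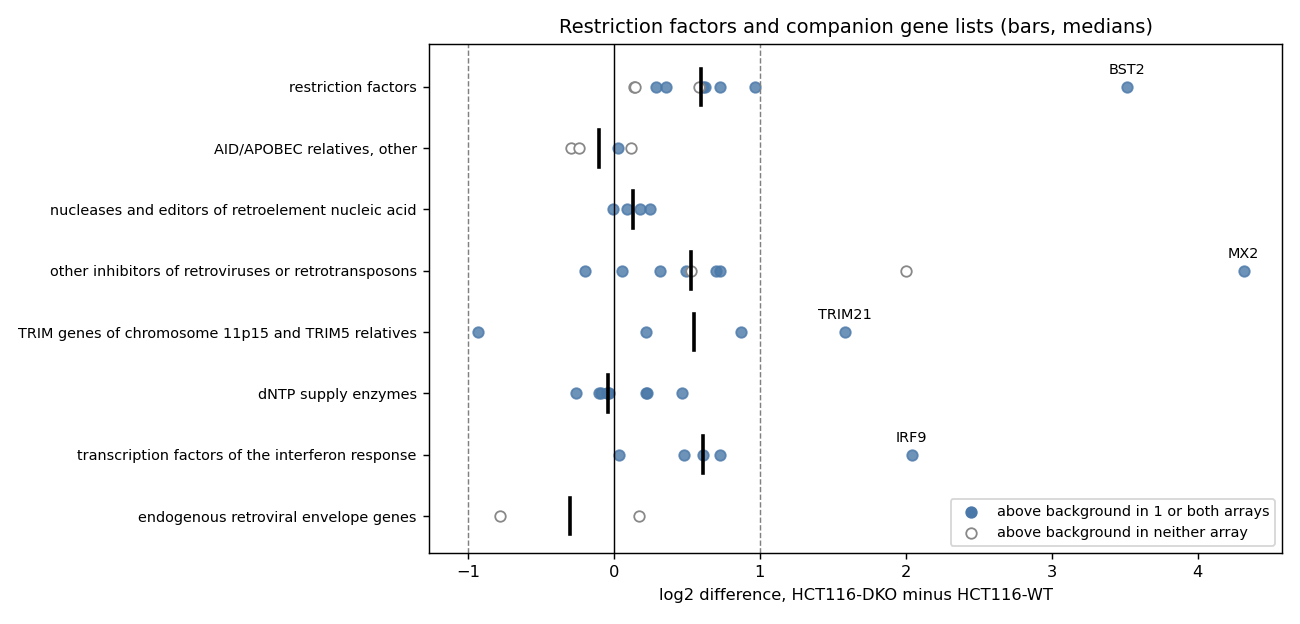
Log2 difference between HCT116-DKO and HCT116-WT for each measured gene of the restriction factors and of the 7 companion lists, with black bars for list medians, dashed lines at 1 and -1 and open points for genes above background in neither array. BST2 (3.52), MX2 (4.32), TRIM21 (1.58) and IRF9 (2.04) are the called genes. The list of deoxynucleotide supply runs from -0.26 to 0.47 and that of nucleases and editors from -0.004 to 0.25.

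Across the series, the arrays had median log2 signals of 8.28 and 8.37 and correlated with r = 0.954 over probe sets, which are not replicates. Both targeted genes were lower in the array labelled HCT116-DKO. There DNMT1 fell from 10.63 to 9.36 with 50 of 50 probe sets lower. DNMT3B fell from 8.32 to 6.91, which is below background, with 30 of 32 lower. Of 11 measured colon epithelial markers 0 were called. EPCAM (11.81 and 11.43) and KRT8 (13.02 and 13.33) were well above background, while 5 of the 11, CDH17, CEACAM5, VIL1, LGALS4 and KRT20, were not above it. Several restriction factors are abundant in blood cells. Of 17 measured blood cell markers, 11 were above background in neither array, including PTPRC, the pan-leukocyte antigen CD45, at 3.81 and 3.88. The actin bundler LCP1 was the only one called and rose from 6.30 to 7.48. CORO1A, an actin-binding protein, was above background in both arrays at 7.61 and 8.43 with 10 of 10 probe sets higher. CD8A (7.48 and 7.31) and NKG7 (7.69 and 7.52) were also above it in both, SPI1 and HBB in HCT116-WT only. Whether such cells had a part in the levels of the restriction factors was not tested. The log2 of the summed level of this list, weighted to its brightest genes and including those below background, was 10.66 and 10.82. For 10 fibroblast markers that sum was 10.29 and 10.40, and their median difference was 0.03. THY1 was the only one called, rising from 6.23, below background, to 7.64. Of the 10, 9 were not called, 5 had a positive difference and 4 were above background in neither array.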

How the data were processed

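Total RNA of HCT116-WT and HCT116-DKO was labelled with biotin and hybridized to 2 Human Exon 1.0 ST arrays, 1 per group. The authors deposited log2 signals per exon-level probe set, and the submitters' processing notes name RMA. The methods name Expression Console and Partek, and no source used here says which of them made the values. RMA usually gives arrays a common distribution, yet the medians of the 2 columns differed (8.28 and 8.37), so other scalings were tried. The study annotated genes on hg18.

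Probe sets were named through GEO's platform annotation of 2014, with symbols updated by the RefSeq gene table (GRCh38.p14), used only for names and gene order. A single gene was named for 261481 (91.0%) of 287329 probe sets, while 8947 with several genes and 16901 with none were left out. Gene levels, differences, background and calls were computed in Python 3.11.15 with numpy 2.4.6 and pandas 2.3.3, as described in the report, and the procedure was tested on simulated data. No test was possible with 1 array per group, and the number of arrays limits the precision. A fold is given as at least N-fold where the dimmer array was not above background, from the brighter level against background.

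The 10 genes and the companion lists (APOBEC relatives, nucleases and editors, other inhibitors, TRIM genes, deoxynucleotide supply, interferon transcription factors, retroviral envelopes, and colon epithelial, blood and fibroblast markers) were chosen with earlier results of these data known. Genes named were the 10, DNMT1 and DNMT3B, called members of each list (otherwise up to 2 measured members with the most probe sets) and the 2 nearest measured genes on each side of each locus. IFI16, TRIM6, TRIM34, TRIM68, STAT2 and the markers that were not called (PTPRC among them) were named after their values were seen. Alternatives covered scaling, summary, threshold, background and probe set choice.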

Additional observations from a re-analysis of the deposited data

Results flagged for a closer look

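Probe sets annotated to 2 of the APOBEC3 genes were outside the gene levels, and all 7 of them were higher in HCT116-DKO. Among these, 2 that are shared by APOBEC3F and APOBEC3G were at least 1 higher and above the probe set background in HCT116-DKO. Probe set 3945616 read 6.62 in HCT116-WT and 8.34 in HCT116-DKO, a difference of 1.73. Probe set 3945655 read 8.18 and 9.38, a difference of 1.196. The other 3 shared by these genes differed by 0.26 to 0.33, and the 2 shared by APOBEC3B and APOBEC3D by 0.65 and 0.30. Which of the genes gave these signals cannot be told apart.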

How the results depend on the processing

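No paired analysis was possible because each group had 1 array, and for the same reason no replicate could be left out. Under all 15 alternatives BST2 was called higher and 0 of the 10 genes were called lower. The number called higher was 1 in the report, 2 with the mean over probe sets, 2 with the median over probe sets and 2 with even-numbered probe sets, where APOBEC3D joined BST2 each time, and 5 at a log2 threshold of 0.58. The median difference of the 10 genes, 0.59, ranged from 0.48 to 0.69 and was 0.48 with levels below background set to background. The number of their probe sets at least 1 higher, 15, was 41 at a threshold of 0.58, 9 at 1.5, 8 with background at the 99th percentile, 6 among odd-numbered and 9 among even-numbered probe sets. Odd and even numbers each cover part of the probe sets by construction. The cause of the other shifts was not tested beyond the changed setting itself. Over all genes the calls, 433 higher and 87 lower, ranged from 221 to 921 and from 31 to 292. APOBEC3H ranged from -0.35 to 0.22, so its sign is not settled. Quantile normalization and median centring moved the median of all genes from 0.02 to -0.07. Odd- or even-numbered probe sets alone were too few for APOBEC3H, and restriction to bright probe sets left 8 genes measured. Signal near background limits APOBEC3G, APOBEC3H and TRIM22.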
